A study of Mus musculus with 9 samples.

Results

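Of the 13491 non-methylated islands (NMIs) listed for C127 cells, 1216 lay wholly inside introns and held no annotated transcription start site (TSS). They were chosen by position alone. An NMI on chromosomes 1 to 19 or X was taken when it contained no 5′ end of any GENCODE M21 transcript, overlapped no exon and overlapped the span of a gene, which makes 1216 of the 13489 NMIs on those chromosomes. C127 is an established mouse mammary epithelial cell line, and the series comprised 3 ATAC libraries, 3 libraries of 4sU-labelled RNA, 1 ATAC input, 1 BioCAP library and 1 BioCAP input, all labelled as that line with no other treatment named. Only the list made from the single BioCAP library was used here, and the other libraries were not analysed here. The list gives positions without a score or a level of any gene. How strongly each NMI was captured and the depth behind it are thus unknown, and the labelled cell type could not be checked against markers. There were no replicates and no test was made. Intervals on shares are exact (Clopper-Pearson) at 95% and cover counting error only.

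In vertebrate genomes most CpG dinucleotides carry methylation, and methylated CpG is lost over evolutionary time, so that most DNA is poor in CpG. Stretches that escape methylation, the NMIs, keep more CpG and mostly coincide with promoters as CpG islands, where proteins with a CXXC domain such as CFP1 and KDM2B bind. BioCAP uses the CXXC domain of KDM2B to pull down such DNA from a sonicated genome. NMIs away from annotated starts are known from other tissues, and distal regulatory elements such as enhancers are often low in methylation in the cells that use them.

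The range of sequence that the resin captured inside introns is seen at its extremes. The sequences that follow are the central 300 bases of NMIs, on the plus strand of mm10 (GRCm38), with CpG in capitals. The highest CpG densities among NMIs of 300 bp or more were in the first introns of Tsc22d3, which encodes a glucocorticoid-induced leucine zipper protein (14.0 CpG per 100 bp over 743 bp, shown from chrX:140598863-140599162), and Nanos3, which encodes an RNA-binding protein of germ cells (12.9 CpG per 100 bp over 714 bp, chr8:84183662-84183961). The lowest were in intron 22 of Col22a1, a collagen gene (1.11 CpG per 100 bp over 539 bp, chr15:71929341-71929640), and intron 3 of Hnf4a, which encodes a nuclear receptor of liver and gut (1.15 CpG per 100 bp over 521 bp, chr2:163556903-163557202). The windows held 47 CpG in Tsc22d3 and 55 in Nanos3, against 5 in Col22a1 and 1 in Hnf4a.
Tsc22d3: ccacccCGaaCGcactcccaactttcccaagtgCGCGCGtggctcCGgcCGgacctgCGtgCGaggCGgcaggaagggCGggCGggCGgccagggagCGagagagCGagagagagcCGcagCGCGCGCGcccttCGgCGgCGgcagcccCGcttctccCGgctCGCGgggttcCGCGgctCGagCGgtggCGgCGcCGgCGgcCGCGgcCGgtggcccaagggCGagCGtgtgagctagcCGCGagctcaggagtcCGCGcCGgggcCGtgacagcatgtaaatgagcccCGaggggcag
Nanos3: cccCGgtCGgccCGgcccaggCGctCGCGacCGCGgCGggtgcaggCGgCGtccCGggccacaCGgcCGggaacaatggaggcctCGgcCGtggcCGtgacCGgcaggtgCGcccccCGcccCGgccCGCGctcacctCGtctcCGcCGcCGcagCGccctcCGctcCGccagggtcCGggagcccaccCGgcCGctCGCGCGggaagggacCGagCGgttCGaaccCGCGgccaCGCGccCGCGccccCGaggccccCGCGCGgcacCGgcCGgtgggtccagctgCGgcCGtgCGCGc
Col22a1: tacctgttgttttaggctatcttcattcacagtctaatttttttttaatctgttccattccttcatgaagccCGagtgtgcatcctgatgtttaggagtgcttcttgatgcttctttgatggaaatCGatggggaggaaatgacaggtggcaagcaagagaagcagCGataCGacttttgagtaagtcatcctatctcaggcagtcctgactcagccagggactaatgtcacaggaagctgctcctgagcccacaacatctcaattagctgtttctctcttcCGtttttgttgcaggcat
Hnf4a: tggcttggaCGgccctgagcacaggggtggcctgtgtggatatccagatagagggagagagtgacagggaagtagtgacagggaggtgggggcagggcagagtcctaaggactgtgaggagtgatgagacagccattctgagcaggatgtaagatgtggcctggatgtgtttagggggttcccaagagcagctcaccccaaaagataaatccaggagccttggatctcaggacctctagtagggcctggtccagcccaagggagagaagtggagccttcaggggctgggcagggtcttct

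The widest NMI of each of the 3 host genes with the most intronic NMIs is shown in the same way. These are Gm20388 (chr8:121125437-121125736, 19 CpG in the window), the long non-coding RNA gene Lncppara (chr15:85678510-85678809, 9 CpG) and Rbfox3, which encodes the neuronal splicing regulator NeuN (chr11:118699593-118699892, 8 CpG). Rbfox3 has another NMI of the same width, 318 bp, which is not shown.
Gm20388: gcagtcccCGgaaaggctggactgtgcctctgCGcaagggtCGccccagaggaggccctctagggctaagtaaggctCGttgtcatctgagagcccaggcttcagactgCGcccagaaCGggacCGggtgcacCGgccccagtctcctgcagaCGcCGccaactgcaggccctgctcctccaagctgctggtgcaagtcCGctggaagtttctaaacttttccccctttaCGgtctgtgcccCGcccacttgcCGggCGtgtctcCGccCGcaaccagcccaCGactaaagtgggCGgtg
Lncppara: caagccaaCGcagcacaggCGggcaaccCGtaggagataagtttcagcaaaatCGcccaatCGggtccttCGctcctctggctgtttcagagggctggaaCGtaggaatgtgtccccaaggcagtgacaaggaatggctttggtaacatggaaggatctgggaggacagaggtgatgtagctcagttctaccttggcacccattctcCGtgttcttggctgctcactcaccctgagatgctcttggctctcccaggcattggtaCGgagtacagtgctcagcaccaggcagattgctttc
Rbfox3: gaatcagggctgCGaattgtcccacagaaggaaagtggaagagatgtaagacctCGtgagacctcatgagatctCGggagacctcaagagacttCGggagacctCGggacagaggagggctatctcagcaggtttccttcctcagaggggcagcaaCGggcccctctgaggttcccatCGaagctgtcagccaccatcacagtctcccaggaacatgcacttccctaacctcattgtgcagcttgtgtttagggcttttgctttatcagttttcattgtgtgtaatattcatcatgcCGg

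Intronic NMIs were small and moderate in CpG. Their width ran from 114 to 5151 bp with a median of 278 bp (quartiles 183 and 487.25 bp), against medians of 408 bp for exonic NMIs without a TSS, 344 bp for intergenic NMIs and 1168 bp for NMIs that held a TSS. An intronic NMI held a median of 9 CpG, against 80 in an NMI with a TSS. The density was 3.23 CpG per 100 bp in the median intronic NMI (quartiles 2.55 and 4.13), 4.13 in exonic, 3.53 in intergenic and 6.85 in TSS NMIs. The upper quartile of the intronic NMIs thus lay close to the median of the exonic ones and below the median of the TSS class. Median GC content was 52.4% in intronic NMIs, 56.3% in exonic, 52.6% in intergenic and 60.7% in TSS NMIs, and the observed/expected CpG ratio was 0.494, 0.565, 0.539 and 0.761 in the same order. Wider NMIs hold a TSS or an exon more easily, so that width and class are tied by the way the classes were made.

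**Figure D1:**
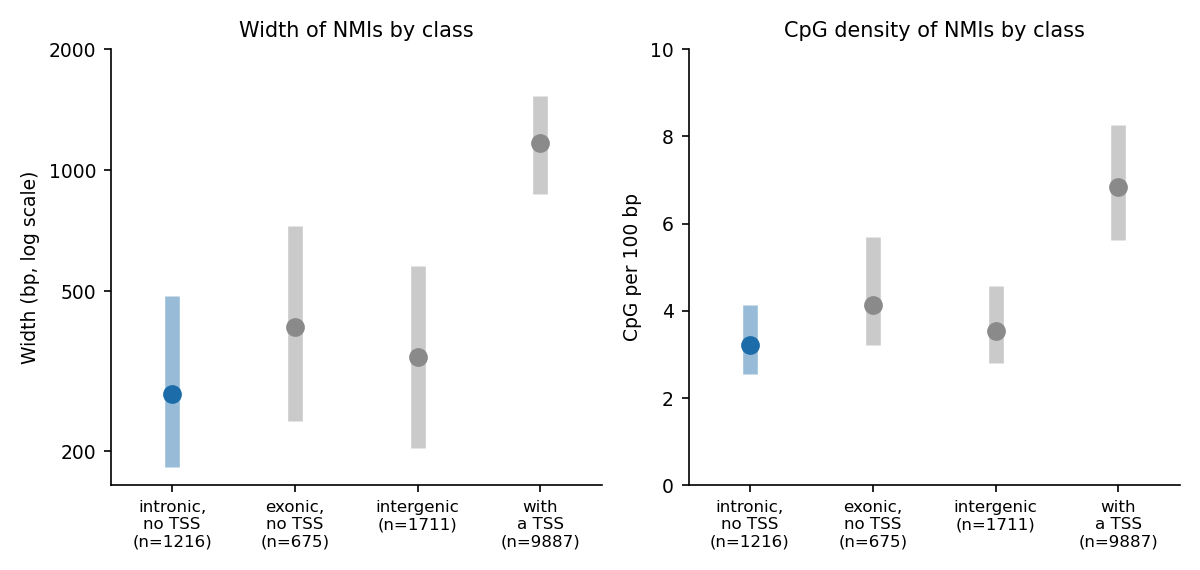
Width (left, bp on a log scale) and CpG per 100 bp (right) of NMIs by class, with intronic NMIs without a TSS in blue and the other 3 classes in grey. Points are medians and bars run from the lower to the upper quartile over NMIs of 1 library; the intronic median was 278 bp wide with 3.23 CpG per 100 bp, against 1168 bp and 6.85 in NMIs with a TSS.

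The CpG of intronic NMIs stood above their own surroundings. BioCAP selects DNA by its non-methylated CpG, so that such a difference is in part built into the list. The central 300 bases of the 1216 NMIs had a median of 3 CpG per 100 bp and an observed/expected ratio of 0.445, against 1 CpG per 100 bp and 0.208 in the 2432 windows of 300 bases that began 3000 bp to either side. GC content moved less, with a median of 52.7% at the centre and 47.7% in the flanking windows. The centres of NMIs with a TSS had 9.33 CpG per 100 bp and a ratio of 0.850. Of the intronic NMIs, 10.4% (interval 8.78% to 12.3%) overlapped a CpG island predicted as a window of at least 500 bp with 55% GC and a ratio of 0.65. With looser criteria (200 bp, 50% GC and a ratio of 0.6) it was 599 of 1216, or 49.3%. Those that met the stricter criteria had a median width of 640 bp and 6.22 CpG per 100 bp, and the 1089 without such an island had 263 bp and 3.11.

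The widest intronic NMI was an outlier in size. It lay in intron 1 of Bcor, which encodes a corepressor of BCL6 (chrX:12086935-12092085), was 5151 bp wide and held 404 CpG at 7.84 per 100 bp, 6382 bp upstream of the nearest Bcor TSS. It was followed by NMIs in intron 1 of Nfix, a nuclear factor I transcription factor gene (3269 bp), in intron 1 of Lncppara (2829 and 2823 bp), in intron 1 of the neuropilin gene Nrp2 (2737 bp) and in Gm44710 (2380 bp). NMIs in Pfdn4 (1935 bp), Lncpint (1899 bp), Gm15738 (1891 bp) and Arhgap23 (1687 bp) completed the 10 widest. Width and CpG density did not go together among them: the 2 Lncppara NMIs of almost equal width had 2.40 and 9.85 CpG per 100 bp, and the Lncpint NMI had 2.11. Among NMIs of 300 bp or more, the next highest densities after Tsc22d3 and Nanos3 were in Stac2 (11.9), Pde10a (11.9) and F630040K05Rik (10.9), all in first introns. The other low ones of at least this width lay in Gm47915 (1.16), Caln1 (1.26) and Gm34672 (1.30).

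Intronic NMIs were spread over all chromosomes used, but unevenly. They made up 13.3% of the NMIs of chromosome 15 (96 of 723) and 12.2% on chromosome 10 (87 of 713), and 1.45% on X (4 of 276), the lowest share of any chromosome; the next lowest was 5.70% on chromosome 7 (52 of 913). Chromosome 11 held the most, 124. The 4 on X were all in first introns and all dense in CpG: Bcor (7.84 per 100 bp), Lonrf3 (8.15), Nhsl2 (6.58) and Tsc22d3 (14.0) each exceeded the upper quartile of all intronic NMIs, 4.13.

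The first question put to the positions was which intron holds the NMI. Intron number was read for each NMI on 1 transcript of its host that spanned it, the APPRIS principal one where possible, so that NMIs of 1 host could be read on different transcripts. By this reading 578 of 1216 intronic NMIs (47.5%, interval 44.7% to 50.4%) lay in the first intron and 638 in a later one. First introns made up 30.4% of the intron length of the same transcripts (44.4 of 146 Mb). The first intron therefore held 13.0 NMIs per Mb, intron 2 held 8.56, intron 3 held 6.85, intron 4 held 5.29 and intron 5 held 4.67, with 5.02 per Mb in introns 6 and later. Set against the introns of 1 transcript per protein-coding gene, whether or not it hosts an NMI, the order was the same. There were 1.88 NMIs per Mb of first intron (456 NMIs), against 0.824 per Mb of later intron (550 NMIs). Some of these NMIs were read on another transcript than the one measured, so that the 2 values are approximate. Only 153 (12.6%) lay in the last intron.

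The reading of the intron depended on the transcript. Host genes have alternative starts, and 723 NMIs (59.5%) were in the first intron of at least 1 transcript that spanned them, while 501 (41.2%) were in the first intron of every such transcript. NMIs in first introns had a median width of 316 bp and 3.36 CpG per 100 bp, against 261 bp and 3.16 in later introns.

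Distance from the start and intron number are tied, because the first intron is the one beside the start. Both were then read together over the host transcripts only, each of which was taken because it spans an intronic NMI. There, beyond 500 bp, NMIs per Mb fell with distance from the transcript's TSS in first and in later introns alike. From 500 bp to under 2000 bp from the TSS there were 68.8 per Mb of first intron (90 NMIs) and 101 per Mb of later intron (11 NMIs, the thinnest group). From 2000 bp to under 10000 bp the values were 30.3 and 42.3 per Mb (169 and 83 NMIs in first and later introns), and from 10000 bp to under 50000 bp they were 12.8 and 15.5 (186 and 224 NMIs). At 50000 bp and over they were 5.15 and 3.75 (117 and 320 NMIs). At equal distance from 500 bp to under 50000 bp, first introns of these transcripts thus had no higher density than later ones, whereas over all distances they had the higher one. Short host transcripts add length to the near groups only, so that taking hosts alone favours a fall with distance. The density by distance over the introns of all genes was not tested.

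**Figure D2:**
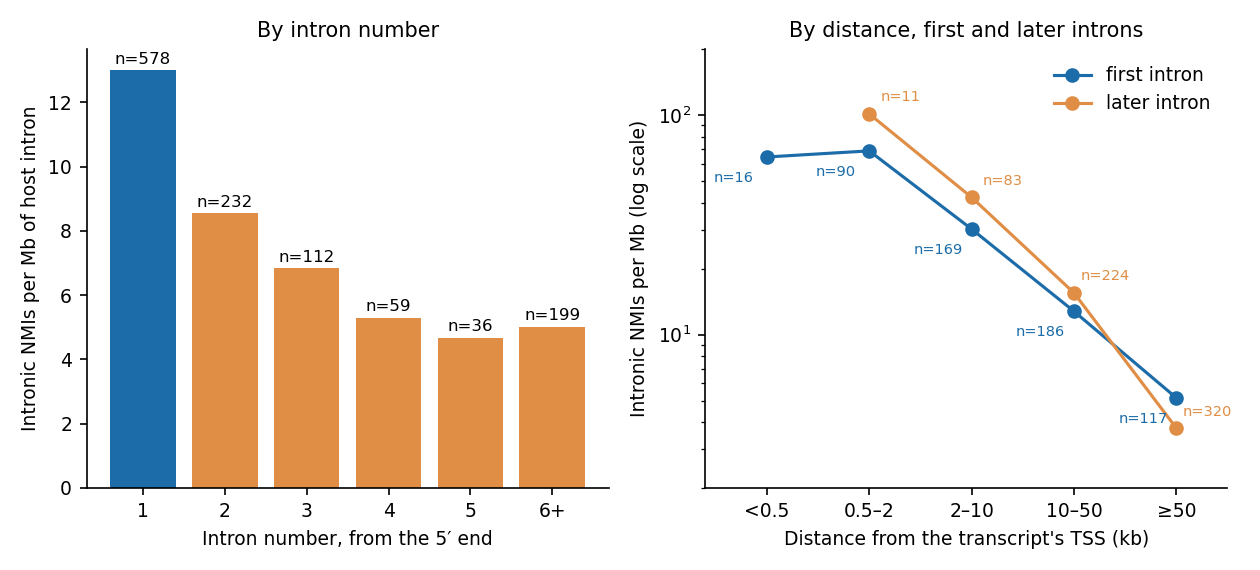
Intronic NMIs per Mb of intron of the host transcripts, by intron number from the 5′ end (left, bars start at 0) and by distance from the transcript's TSS in kb for first (blue) and later (orange) introns (right, log scale). Numbers beside bars and points are NMIs; density was 13.0 per Mb in intron 1 and 5.02 in introns 6 and later, while within the distance groups from 0.5 to 50 kb the later introns lay above the first ones.

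The distance to the host's own TSS was then measured from the nearer edge of the NMI to the closest 5′ end of any transcript of the host gene. It ran from 5 to 4367133 bp with a median of 9817 bp (quartiles 2930.5 and 31108.5 bp). With GENCODE basic transcripts only the median was 18453 bp, and to the outermost 5′ end of the host it was 31122.5 bp. The median was 6134.5 bp in first introns and 15872.5 bp in later introns. Of the 1216, 60 (4.93%) lay under 500 bp from a host TSS, 169 (13.9%) from there to under 2000 bp, 385 (31.7%) from there to under 10000 bp, 401 (33.0%) from there to under 50000 bp and 201 (16.5%) at 50000 bp or more. Together 229 (18.8%, interval 16.7% to 21.1%) lay within 2000 bp. NMIs nearer to a host TSS were wider and denser in CpG: the medians by these groups, from near to far, were 336, 300, 300, 272 and 225 bp, and 3.72, 3.54, 3.21, 3.17 and 3.03 CpG per 100 bp.

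**Figure D3:**
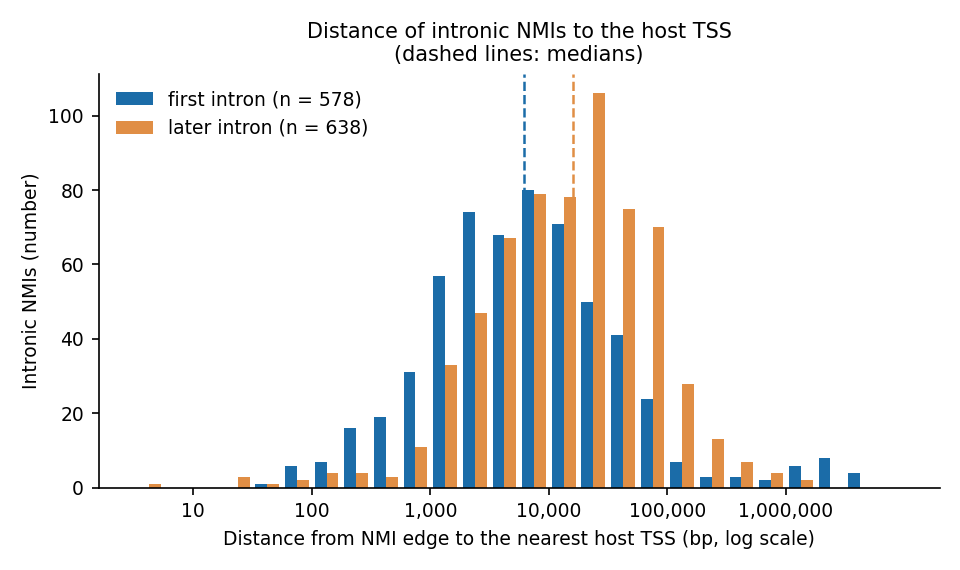
Number of intronic NMIs by distance from the NMI's nearer edge to the nearest host TSS (bp, log scale), for first introns (blue, 578 NMIs) and later introns (orange, 638 NMIs). Dashed lines mark the medians, 6134.5 bp in first and 15872.5 bp in later introns.

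The 5 nearest show how a later or alternative start can sit beside an NMI. They lay 5 bp from a TSS of Nedd4l, a ubiquitin ligase gene, 23 bp from one of Ttll11, 27 bp from one of Pde4d, 30 bp from one of 4930519G04Rik and 49 bp from one of Gm14488. Each was upstream of that start, in introns 26, 6, 3, 2 and 2 of the transcript read. So close to a start the downstream side is exon, which the rule leaves out. In Nedd4l the outermost TSS was 319977 bp away and in Pde4d 1235532 bp. Measured to the outermost 5′ end of the gene, the median distance over all intronic NMIs was 31122.5 bp.

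Of the intronic NMIs, 864 (71.1%) lay downstream of the nearest host TSS and the others upstream of it, towards an earlier start of the same gene. The nearest host TSS lay in an NMI of its own for 302 (24.8%, interval 22.4% to 27.4%), 34.9% in first introns and 15.7% in later introns. For the 60 NMIs under 500 bp from a host TSS the count was 0 of 60. The smallest gap between an intronic NMI and any other NMI was 464 bp, so that a closer start could not lie in another one. Of host genes with a protein-coding product, 438 of 785 (55.8%, interval 52.2% to 59.3%) had an NMI at some TSS, against 49.9% of all protein-coding genes with an intron. Only 8 intronic NMIs were within 500 bp of an NMI with a TSS, and the median gap to one was 46828.5 bp.

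Other genes nested in or beside the host gave a nearer start in many cases. The nearest TSS of any gene belonged to another gene for 416 of 1216 (34.2%), and the median distance to it was 6206 bp, against 1553 bp for exonic and 10739 bp for intergenic NMIs. There were 451 intronic NMIs (37.1%) at 10000 bp or more from every TSS, with a median width of 248 bp and 3.10 CpG per 100 bp. Conversely, 88 lay within 500 bp of some TSS, and for 29 of these it was the start of a gene other than the host. In 27 of the 29 the NMI was upstream of that start. The rule favours that side, because just downstream of a start lies an exon, and NMIs that overlap an exon were left out. The 29 included an NMI 1 bp from the start of Ache, the acetylcholinesterase gene (1080 bp wide, 49 CpG), and one 231 bp from the start of the long non-coding RNA gene Fendrr (810 bp, 85 CpG).

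Small non-coding RNA genes made up 10 of the 88, all with the NMI upstream of the start: 4 snoRNA, 3 snRNA and 3 miRNA genes. Here too the rule favours the upstream side, since an NMI over the small RNA itself would overlap an exon. The 4 snoRNA cases were the only intronic NMIs of Tex14, a gene of the intercellular bridges of germ cells, and formed a set of their own. All 4 were in intron 2 of Tex14, each overlapped a predicted CpG island, and they lay 301, 304, 300 and 310 bp upstream of Rnu3b1, Rnu3b3, Rnu3b4 and Rnu3b2, the genes of the U3 snoRNA that guides cleavage of the ribosomal RNA precursor. They were 270, 322, 272 and 258 bp wide with 8.52, 7.14, 6.62 and 6.59 CpG per 100 bp. None held the U3 start itself, which the rule for the class requires. Their sequences were related: by local alignment the 6 pairs were 70.7% to 94.1% identical over 186 to 259 columns, and among all intronic NMIs the pair with the most 31-base words in common was that beside Rnu3b1 and Rnu3b3 (66 words). How far near-identical copies affected where the NMIs were called was not tested. The 160 bases of each NMI nearest to its U3 gene are shown on the plus strand with CpG in capitals, at chr11:87442777-87442936, chr11:87448164-87448323, chr11:87461827-87461986 and chr11:87470899-87471058. This set was chosen after its values were seen.
Rnu3b1: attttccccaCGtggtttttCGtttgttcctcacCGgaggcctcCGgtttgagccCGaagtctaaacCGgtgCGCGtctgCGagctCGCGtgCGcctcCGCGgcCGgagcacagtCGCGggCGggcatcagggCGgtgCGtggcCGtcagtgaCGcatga
Rnu3b3: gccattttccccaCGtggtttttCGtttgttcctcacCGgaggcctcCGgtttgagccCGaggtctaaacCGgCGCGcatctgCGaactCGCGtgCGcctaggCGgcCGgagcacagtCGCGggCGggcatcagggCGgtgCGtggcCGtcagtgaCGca
Rnu3b4: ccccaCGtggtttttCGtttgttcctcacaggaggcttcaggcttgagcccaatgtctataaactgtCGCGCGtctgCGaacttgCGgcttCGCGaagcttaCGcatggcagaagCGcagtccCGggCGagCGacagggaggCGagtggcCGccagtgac
Rnu3b2: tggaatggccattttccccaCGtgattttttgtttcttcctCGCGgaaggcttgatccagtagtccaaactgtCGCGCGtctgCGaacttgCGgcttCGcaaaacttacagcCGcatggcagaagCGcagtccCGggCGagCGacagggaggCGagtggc

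All 4 stretches held the letters CACGTG, an E-box that reads the same on both strands, near their left end. As related copies, these 4 are not separate cases. In windows of 300 bases, longer than the stretches shown, CACGTG occurred at the centre of 10.9% of intronic NMIs. It was in 5.43% and 4.69% of such windows 3000 bp to their left and right, and in 7.20% of 32619 RefSeq promoter sequences. A comparable arrangement was found in Parp16, whose 2 NMIs in intron 1 lay 84 bp upstream of Rnu5g, a gene of the U5 spliceosomal RNA (314 bp wide, 17 CpG), and 85 bp upstream of the snRNA gene Gm25313 (608 bp, 21 CpG).

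A start known to another annotation was rarely inside an intronic NMI. A RefSeq transcript began within 39 of the 1216 (3.21%), for 8 of them a curated one, and 108 (8.88%) overlapped a RefSeq exon. The shares with a RefSeq start were 9.63% in exonic and 5.32% in intergenic NMIs. The 39 had a median width of 537 bp and 4.46 CpG per 100 bp. Among them were the NMI of 1687 bp in Arhgap23 and 1 of the 4 NMIs of Nfix, 721 bp wide.

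Most hosts were protein-coding. A protein-coding gene hosted 1006 of the 1216 (82.7%), a lincRNA gene 122, an antisense gene 42, a processed transcript 35 and another type 11, and 78 NMIs had more than 1 host gene. In all there were 966 host genes, 785 of them protein-coding, which is 3.84% of the 20467 protein-coding genes with an intron. The hosts had long introns. Protein-coding hosts with 1 intronic NMI had a median of 74678.5 bp of intron, hosts with 2 had 149663 bp and hosts with 3 or more had 164715 bp, against 14425 bp in protein-coding genes with none. The share of genes that hosted an NMI was 0.526% below 10 kb of intron, 2.61% from 10 to 30 kb, 5.68% from 30 to 100 kb, 12.6% from 100 to 300 kb and 23.1% at 300 kb or more. Per 100 kb of intron, by contrast, the number was 0.130, 0.152, 0.125, 0.104 and 0.0668 in the same order, lowest in the longest genes.

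Several NMIs in 1 host were the minority. There were 815 hosts with 1 intronic NMI, 104 with 2, 28 with 3, 10 with 4, 6 with 5, 1 with 6, 1 with 8 and 1 with 25. The 47 hosts with 3 or more held 193 NMIs. Of the 43 protein-coding ones, 12 had an intron, in at least 1 annotated transcript, that held all of them, and 24 had an NMI at a TSS. The 25 belonged to Gm20388 (chr8:119910841-124345722), a readthrough transcript of 4434882 bp that GENCODE tags as protein-coding. It spans many other genes, and all 25 fell in its first intron of 4384418 bp. Other genes hosted 11 of the 25 as well, among them Gse1 with 4. The 5 NMIs farthest from a host TSS, at 2550419 to 4367133 bp, were all in Gm20388, and the nearest TSS of any gene was 527 to 28537 bp away. When the readthrough transcripts were left out, 14 of the 25 counted as intergenic, and the most in any host was 8.

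Lncppara, a non-coding gene whose span holds the let-7 family genes Mirlet7c-2 and Mirlet7b, hosted those 8 within 53909 bp (chr15:85653616-85707524), or 15.4 per 100 kb of intron. Of these, 6 lay in intron 1 and 2 in intron 2, with gaps of 1203 to 4414 bp between neighbours. Their widths in order from the 5′ end were 495, 459, 2823, 273, 159, 2829, 832 and 756 bp. The CpG per 100 bp in the same order was 7.47, 2.61, 9.85, 2.93, 3.14, 2.40, 1.92 and 1.46, so that 2 dense NMIs stood among 6 sparse ones. A Lncppara start lay in an NMI as well. None of the 8 had the AP-1 letters TGANTCA in its central 300 bases.

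Hosts with 5 or 6 were of contrasting kinds. Rbfox3 held 6 in 5 introns over 421836 bp, 140 to 318 bp wide, and the neighbours were 43947 to 104541 bp apart. Dlgap1, which encodes a postsynaptic scaffold protein, had 5 that no single annotated intron held together, Ctnnd2, a delta-catenin gene, had 5 in 3 introns, and Cdh4, a cadherin gene, had 5 in 2 introns. These 3 genes span 456943 to 856749 bp, and they held 0.591 (Ctnnd2) to 1.11 (Cdh4) NMIs per 100 kb of intron. Smad3 and Gng7 were shorter and denser. Smad3, which encodes a transducer of TGF-beta signals, held 5 per 105686 bp of intron, or 4.73 per 100 kb, all in intron 1. They were 174 to 401 bp wide, lay 637 to 9150 bp from a Smad3 TSS and had 1.73 to 3.99 CpG per 100 bp. Gng7, which encodes a G protein gamma subunit, held 5 per 62536 bp of intron, or 8.00 per 100 kb, at 782 to 42183 bp from a TSS.

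Of the hosts with 4, Nfix held NMIs of 301, 1389, 721 and 3269 bp, Cuedc1 of 859, 1382, 730 and 845 bp, and Arhgap23, a GTPase-activating protein gene, of 652, 319, 1687 and 234 bp. In Cuedc1 the 4 lay towards the 3′ end, from 66.1% to 86.5% of the gene's length. Bcl6, a transcriptional repressor gene, held 3 in its first intron (146, 373 and 846 bp) and, at 17.5 per 100 kb, more per length than Lncppara.

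**Figure D4:**
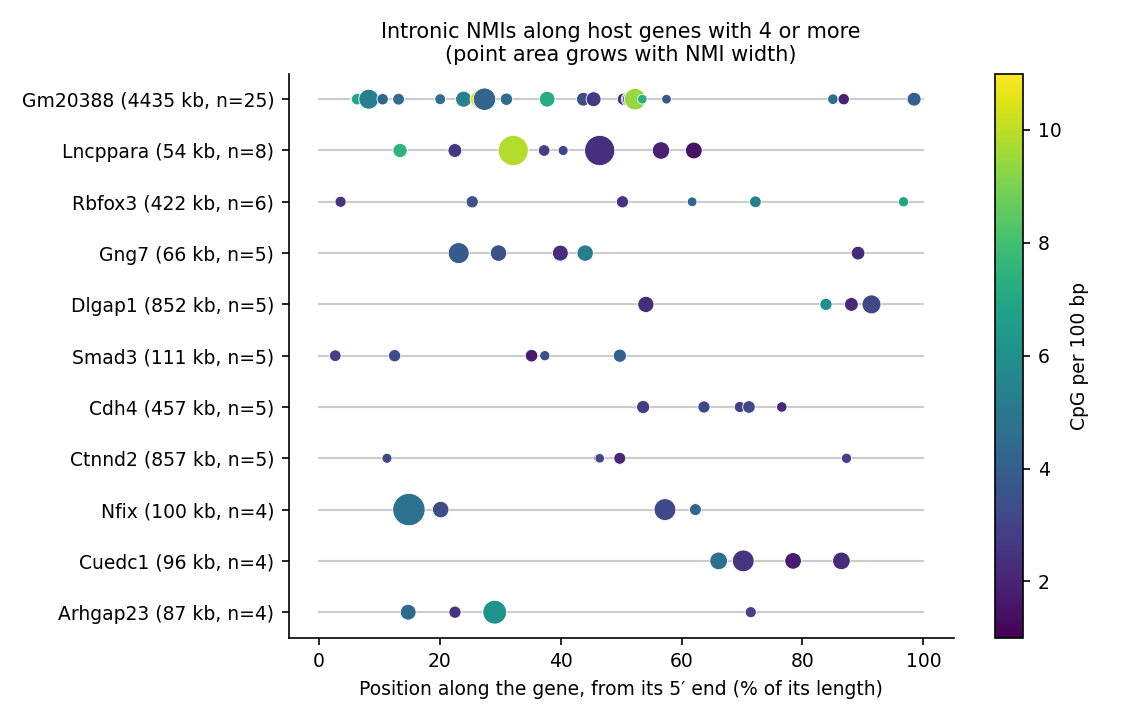
Positions of intronic NMIs along 11 of the 12 host genes with the most, as percent of the gene's length from its 5′ end (horizontal axis), with the gene's length and its number of NMIs beside its name. Point area grows with NMI width and colour gives CpG per 100 bp; the 8 NMIs of Lncppara lay between 13.4% and 62.0% of the gene, and the 5 of Smad3 between 2.70% and 49.8%.

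Lists of genes of pathways and cell types relevant to an epithelial line were then counted for hosts, beside the 3.84% of all protein-coding genes with an intron. All but the response factor list (median intron length 12362 bp) had longer introns, with medians of 27834 to 312815 bp, than protein-coding genes without an intronic NMI (14425 bp). The share of hosts moves with that length, and the lists' members were chosen with earlier results known. Of 22 genes of the actin cytoskeleton and focal adhesions, 7 were hosts (31.8%, interval 13.9% to 54.9%): Pxn, Tns1, Myh9, Tns3, Cald1, Diaph1 and Actn1, with 0.576 NMIs per 100 kb of intron against 0.103 over all protein-coding genes. Every other list except the neuronal one was also above 0.103. Their values ran from 0.128 (receptor tyrosine kinases and Ras-MAPK) to 0.476 (response factors). Pxn, which encodes the adaptor paxillin, held NMIs of 376 and 1027 bp in its first intron, 1272 and 7730 bp from a TSS. Tns1, a tensin gene, held one of 1038 bp at 1402 bp from a TSS and one of 194 bp in intron 3. Myh9, which encodes a non-muscle myosin heavy chain, held one of 226 bp in intron 1 and one of 417 bp in intron 3.

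Of 22 Wnt and Hippo genes, 6 were hosts (27.3%): Vgll4, a TEAD cofactor gene, with NMIs of 504, 295 and 569 bp, the Wnt co-receptor gene Lrp5 with 148 and 403 bp, and Tcf7l2, Wwc1, Amotl2 and Ctnnb1. Of 25 TGF-beta and BMP genes, 5 were hosts (20%): Smad3, the corepressor gene Ski, the inhibitory Smad6, Ltbp1 and Smurf1. The Smad6 NMI was 1197 bp wide and lay 78 bp from a Smad6 TSS. Of 25 receptor tyrosine kinase and Ras-MAPK genes, 4 were hosts (16%): Fgfr2, Igf1r, Insr and Fgfr1. Of the 3 NMIs given to Fgfr2, 2 lay 571130 and 1297443 bp from a TSS, inside a long Fgfr2 transcript that spans other genes, and 1 lay at 6894 bp. The insulin receptor gene Insr held an NMI of 939 bp with 5.32 CpG per 100 bp, and Igf1r one of 1237 bp.

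Of 29 chromatin regulator genes, 5 were hosts (17.2%), among them Arid1b, a gene of a chromatin remodelling complex, with an NMI of 753 bp, the histone deacetylase gene Hdac7 with 724 bp, and the DNA methyltransferase gene Dnmt1 with 215 bp. Of 24 mammary and epithelial genes, 4 were hosts (16.7%): Runx1, Tfap2a, Gata3 and Cdh3. The NMI in Tfap2a, a transcription factor gene of epithelia, was 670 bp wide and 797 bp from a TSS, and that in Gata3, a factor of the luminal mammary lineage, was 169 bp wide and 659 bp from a TSS. Of 21 AP-1, Runx and other response factor genes, 4 were hosts (19.05%): Runx1, which is in both lists, Mafk, Runx2 and Nfkb1. Of 19 neuronal genes, 2 were hosts (10.5%), among them Nrxn2, a neurexin gene, with NMIs of 827 and 494 bp in intron 17. With a median of 312815 bp of intron, the neuronal list had the longest introns and the fewest NMIs per length, 0.0265 per 100 kb.

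The sequences were finally searched for the letters that known families of transcription factors bind, in the central 300 bases and on both strands. This window is wider than the 657 intronic NMIs under 300 bp, so that a match there may lie outside the NMI. NMIs with a TSS, with a median width of 1168 bp, mostly hold the whole window. For AP-1, the family of Fos and Jun proteins, the letters searched were TGANTCA, where N is any base. These letters were in 299 of 1216 intronic NMIs (24.6%, interval 22.2% to 27.1%), in 12.1% of exonic NMIs (9.78% to 14.9%), in 16.3% of intergenic NMIs (14.6% to 18.1%) and in 3.25% of NMIs with a TSS (2.91% to 3.62%). In windows of the same length 3000 bp to the left and to the right of intronic NMIs they were in 7.48% and 9.29%, and in RefSeq promoters (250 bases before to 50 after the start) in 7.85%. The intervals of the intronic class and of each of these sets did not overlap. GC content differs among these windows, with a median of 52.7% in intronic centres, 47.7% in the flanks and 67.7% in TSS centres, and its part was not tested. Among intronic NMIs of 300 bp or more the share with TGANTCA was 21.5% (interval 18.1% to 25.1%). This interval met that of the intergenic NMIs of any width. The narrower form TGACTCA, or TGAGTCA on the other strand, was in 236 intronic NMIs (19.4%).

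The share with the AP-1 letters was alike in first introns (24.6%) and in later introns (24.6%), and it was 19.7% within 2000 bp of a host TSS, 27.5% from there to under 10000 bp and 24.6% beyond. At 10000 bp or more from every TSS it was 24.8% of 451 intronic NMIs and 17.6% of 896 intergenic ones. It differed by predicted CpG island: the letters were in 9 intronic NMIs with a predicted CpG island (7.09%) and in 290 of 1089 without one (26.6%). The NMIs with an island also had more GC (median 60.4% against 51.6%) and were wider (640 against 263 bp). The part of CpG, GC and width in this was not tested. Among the hosts named above, those with the letters included Myh9, Cald1, Ski, Wwc1, Mafk, Smad3 (2 of 5 NMIs) and Dlgap1 (2 of 5). The widest such NMIs at 10000 bp or more from every TSS were in Gm15738 (1312 bp) and in Prdm16, a gene of a zinc finger factor (912 bp). Their central 300 bases are shown on the plus strand with the AP-1 letters, not the CpG, in capitals (chr16:13437442-13437741 and chr4:154425165-154425464). The match in Gm15738 is TGATTCA, outside the narrower form, and that in Prdm16 is TGACTCA.
Gm15738: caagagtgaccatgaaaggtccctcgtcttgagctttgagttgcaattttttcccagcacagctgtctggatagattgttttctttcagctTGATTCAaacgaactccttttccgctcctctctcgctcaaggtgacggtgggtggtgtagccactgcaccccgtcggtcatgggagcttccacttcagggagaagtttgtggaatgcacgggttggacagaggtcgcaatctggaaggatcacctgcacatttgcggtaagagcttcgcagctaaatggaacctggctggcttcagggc
Prdm16: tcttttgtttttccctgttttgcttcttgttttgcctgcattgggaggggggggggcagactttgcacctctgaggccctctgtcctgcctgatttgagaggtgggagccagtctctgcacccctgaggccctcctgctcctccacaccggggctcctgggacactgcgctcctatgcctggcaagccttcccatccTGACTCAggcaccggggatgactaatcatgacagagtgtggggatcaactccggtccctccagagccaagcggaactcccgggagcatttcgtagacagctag

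The letters GGGCGGG, bound by SP factors at promoters, showed the opposite order among the NMI classes. They were in 12.9% of intronic NMIs, in 19.9% of exonic, 17.5% of intergenic and 43.4% of TSS NMIs, in 4.03% and 3.54% of the left and right flanks and in 25.7% of RefSeq promoters. Intronic NMIs with a predicted island had them in 48.8% and those without in 8.72%. The ETS letters CCGGAAG were in 4.85% of intronic, 7.70% of exonic, 4.91% of intergenic and 13.9% of TSS NMIs (1.73% and 1.40% in the flanks, 8.92% of promoters). The CTCF letters AGNGGGCGC were in 3.54% of intronic NMIs, the lowest share of the classes, against 7.41% of exonic, 7.48% of intergenic and 5.03% of TSS NMIs (0.576% in either flank, 2.90% of promoters). The TEAD letters GGAATG were in 19.9% of intronic, 16.6% of exonic, 18.7% of intergenic and 8.99% of TSS NMIs, with 16.7% and 16.4% in the flanks and 14.6% of promoters. The CCAAT box letters CCAAT were in 26.8% of intronic, 22.8% of exonic, 26.8% of intergenic and 22.9% of TSS NMIs. The intronic share was below that of the flanks (31.9% and 31.8%) and promoters (37.6%). The SP, ETS and CTCF letters each hold a CpG, and both BioCAP and the predicted islands select for CpG. Their higher shares in NMIs than in the flanks, and in NMIs with a predicted island, are thus in part built in. A match to any of these letters is a description of the sequence and does not show that a factor was bound.

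**Figure D5:**
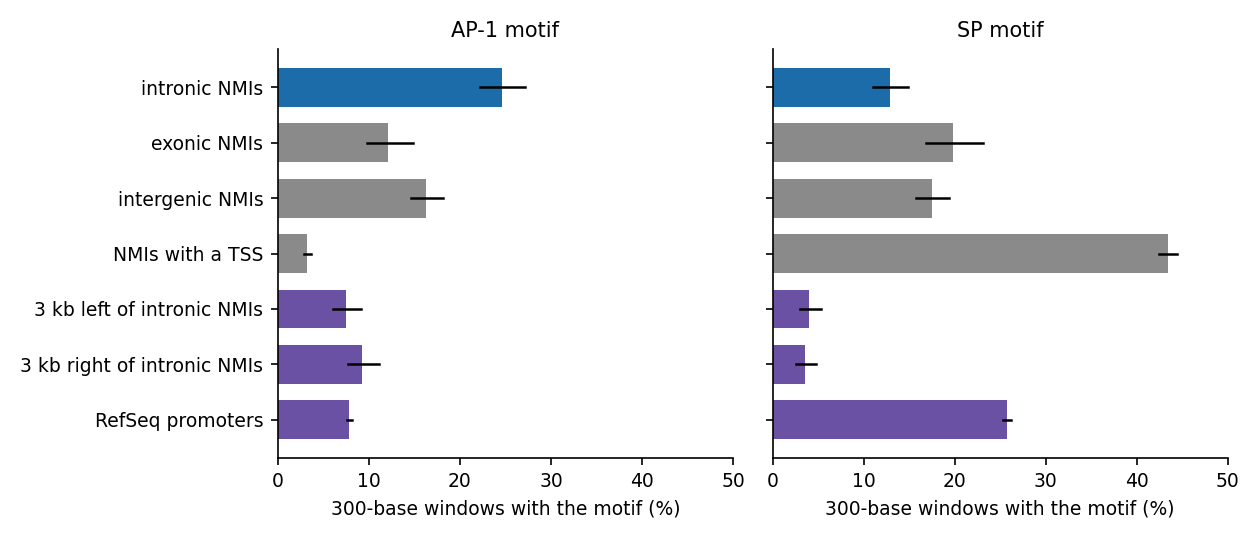
Share of 300-base windows (percent, bars from 0) that held the AP-1 letters (left) and the SP letters (right) in intronic NMIs (blue), the other NMI classes (grey), and windows 3 kb to either side of intronic NMIs and RefSeq promoters (purple). Black lines are exact 95% intervals; the AP-1 share was 24.6% in intronic NMIs and 3.25% in NMIs with a TSS, and the SP share 12.9% and 43.4%.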

How the data were processed

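BioCAP captures DNA fragments that carry non-methylated CpG. For the deposited list the authors called NMIs with MACS at a fixed false discovery rate, and the submitters' processing notes name Bowtie2, SAMtools and MACS2 with the mm10 build. The methods state the removal of reads without a unique position and of PCR duplicates for ChIP-seq, not for BioCAP. The sources used here give neither versions nor whether the input served as control. The deposited values are positions (chromosome, start and end, counted from 0 and given here from 1) with no score, count or signal, so that weakly captured regions cannot be told from strong ones and depth is unknown. Of 13491 NMIs, 2 lay off chromosomes 1 to 19 and X and were left out.

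Classes were made with GENCODE M21 (GRCm38, the coordinates of mm10), with a TSS first, then exon, intron and intergenic. Where several genes spanned an NMI, the protein-coding one and then the longer one was its host. The intron was read for each NMI on 1 transcript that spans it, the APPRIS principal one if possible, then a GENCODE basic one. Sequence came from the GRCm38 assembly and promoters from RefSeq. All shares, medians and intervals were computed with Python 3.11.15, numpy 2.4.6, scipy 1.17.1 and pandas 2.3.3. The steps that place NMIs, predict CpG islands and search for the AP-1 letters were tested on simulated data, and the count of CpG was not. The genes named were the hosts of the 10 widest NMIs, of the 5 densest and the 5 sparsest in CpG among those of 300 bp or more, of the 5 farthest from and the 5 nearest to a host TSS, the 12 hosts with the most, and up to 4 hosts per gene list. A few genes taken by this rule are left out here. Other genes named were chosen after their values were seen. The members, lists and alternatives were chosen with earlier results of these data known.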

Additional observations from a re-analysis of the deposited data

How the results depend on the processing

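With 1 library, no score and no replicate, the values describe this list only, and regions under the caller's threshold are not in it. A value was taken as unmoved when it stayed within the main value's 95% interval (for the number of hosts, within 1.5 times), and 41 of 76 alternative values were. No paired analysis was possible because only 1 library gave the list and no test was made.

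Keeping only NMIs of 300 bp or more (559) lowered the intronic share to 4.76%, the median distance to the host TSS to 8343 bp, hosts with 3 or more to 16, protein-coding hosts to 1.81% and the AP-1 share to 21.5%, and raised the first-intron share to 54.0%, NMIs within 2000 bp of a host TSS to 21.3%, those whose nearest host TSS lay in an NMI to 28.4%, CpG density to 3.39 per 100 bp and predicted islands to 19.3%. With protein-coding hosts only, 7.46% of NMIs were intronic. GENCODE basic transcripts gave 1259 intronic NMIs (1156 shared), a median of 18453 bp to the host TSS, 13.8% within 2000 bp, 37.5% with the nearest host TSS in an NMI and 12.3% with a predicted island. Measured to the outermost 5′ end, these were 31122.5 bp, 7.81% and 40.5%. The first-intron share was 59.5% by any transcript and 41.2% by every transcript. Looser island criteria (200 bp, 50% GC, ratio 0.6) gave 49.3%, and a search of the whole NMI gave AP-1 letters in 27.1%.

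Classing by the middle base took in NMIs that hold a TSS at an edge (4070 in all) and by that construction moved every value: 30.2% intronic, 75.2% in the first intron, a median of 332 bp, 69.6% within 2000 bp, 71.1% with the nearest TSS in an NMI, 97 hosts with 3 or more, 15.7% of protein-coding genes, 5.59 CpG per 100 bp, 64.5% with an island and 10.1% with AP-1 letters. Leaving out NMIs that overlap a RefSeq exon or start, added after seeing the data, gave 8.21% intronic, 3.55% of protein-coding genes as hosts and 8.57% with an island. Leaving out readthrough transcripts, also added after seeing the data, left 1196 intronic NMIs and all 10 values unmoved.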

Other observations

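Every word of 7 bases without CpG was also counted, on both strands, in the central 300 bases, and the 1580 words found in at least 5% of intronic NMIs were ranked by how far this share exceeded the mean of the left and right flanks. This ranking was made after the AP-1 shares had been seen, and it carries no test. The first word was TGACTCA, a form of the AP-1 letters: it occurred in 236 intronic NMIs (19.4%), in 4.69% and 6.003% of the left and right flanks, in 13.5% of intergenic, 9.93% of exonic and 2.49% of TSS NMIs and in 5.22% of RefSeq promoters. The words ranked 2 to 4, GAGTCAC (13.3%), CTGAGTC (12.6%) and GACTCAC (9.54%), overlap it. The first word that does not was CAGCAGC, ranked 5, in 15.5% of intronic NMIs, 9.87% and 9.29% of the flanks and 18.9% of TSS NMIs. The word CAGCTGC, ranked 8, which holds the E-box letters CAGCTG, was in 12.2% of intronic NMIs, 6.003% and 7.40% of the flanks and 10.1% of TSS NMIs.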
